A study of Mus musculus with 24 samples.

Results

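Morulae that grew from single blastomeres of separated two-cell mouse embryos were compared with intact 8-cell embryos, to ask which steps past the 8-cell stage an embryo from 1 blastomere has made. The embryos were chosen by the origin and stage in their labels: 6 split morulae and 4 intact 8-cell embryos, 10 of the 24 embryos of the series. Because the 6 split morulae are sisters from 3 two-cell embryos, the counts of each pair of sisters were summed, so that 3 split morula pairs stood against 4 8-cell embryos, 7 of 18 units in all. The study sampled embryos by stage and origin to follow how far transcriptomes converge after separation. Each embryo was lysed alone, its polyadenylated RNA was copied from an oligo(dT) primer, and the full-length cDNA was sequenced by Smart-seq2, a method for very small amounts of RNA.

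All embryos came from in vitro fertilization with the outbred ICR stock and shared 1 incubator regime of raised carbon dioxide and low oxygen. For the split morulae, late two-cell embryos were placed in a biopsy medium, their sister blastomeres were pulled apart mechanically, and each was grown by itself in a modified sodium hyaluronate gel. The 5 intact morulae, which give the same step without separation, and the 4 intact 8-cell embryos were left whole and cultured in parallel; whether they lay in gel is not given in the sources used here. In the comparison with 8-cell embryos, stage and separation therefore differ together, gel may differ with them, and these cannot be told apart. Hours of culture, cell numbers, embryo sex and the litters behind the replicates are not given in the sources used here, so the p-values measure only the spread between these embryos. An embryo is a bulk sample here: fewer cells of a type and less RNA per cell cannot be told apart.

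At the 8-cell stage mouse blastomeres flatten against each other and become polar, with an apical cap facing outwards. Outer cells of the morula keep that cap, switch off Hippo signalling and let the YAP and TEAD4 proteins turn on trophectoderm genes such as Cdx2 and Gata3, while inner cells keep the POU5F1, NANOG and SOX2 programme of the later embryo proper. Tight junctions then seal the outer layer, and ion pumps and water channels fill the blastocoel, while the last transcripts stored by the oocyte are cleared.

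The stage labels were checked against marker genes. Split pairs 1 and 2 carried morula and trophectoderm transcripts (Gata3, Krt8, Krt18, Cgn, Aqp3) far above every 8-cell embryo, and carried the cleavage transcripts Dppa3, Obox6, Trim43b and Pramel7 below every 8-cell embryo. Split pair 3 was also above every 8-cell embryo in the first set, but less far than the other pairs, and was mixed in the second. Obox6, a homeobox gene of the early embryo, measured 367, 474 and 2041 CPM (counts scaled to a common library size with TMM factors) in split pairs 1 to 3, against 1658, 1728, 1957 and 2667 CPM in 8-cell embryos 1 to 4 and 458 to 869.8 CPM over the intact morulae. Trim43b, a cleavage-stage member of the TRIM family, followed the same order, with 385, 389 and 1371 CPM in the split pairs, against 1858, 1714, 2039 and 2756 CPM in the 8-cell embryos and 284 to 462 CPM over the intact morulae. Pair 3 thus lay inside the 8-cell range for Obox6 and close under it for Trim43b, whereas for Dppa3, at 7594, 7962 and 10519 CPM in the split pairs against 29926, 26628, 20511 and 18550 CPM in 8-cell embryos, it was well below. Neither Obox6 (log2 fold change -1.06, adjusted p = 0.437) nor Trim43b (-1.55, adjusted p = 0.0866) passed the test over all 3 pairs. Zscan4c, a two-cell stage marker, was at most 0.0881 CPM in every split pair and at most 0.0674 CPM in every 8-cell embryo, which is at or below the floor of 3 counts. Reads of Obox6 and Trim43b can be split with near-identical neighbours.

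**Figure D1:**
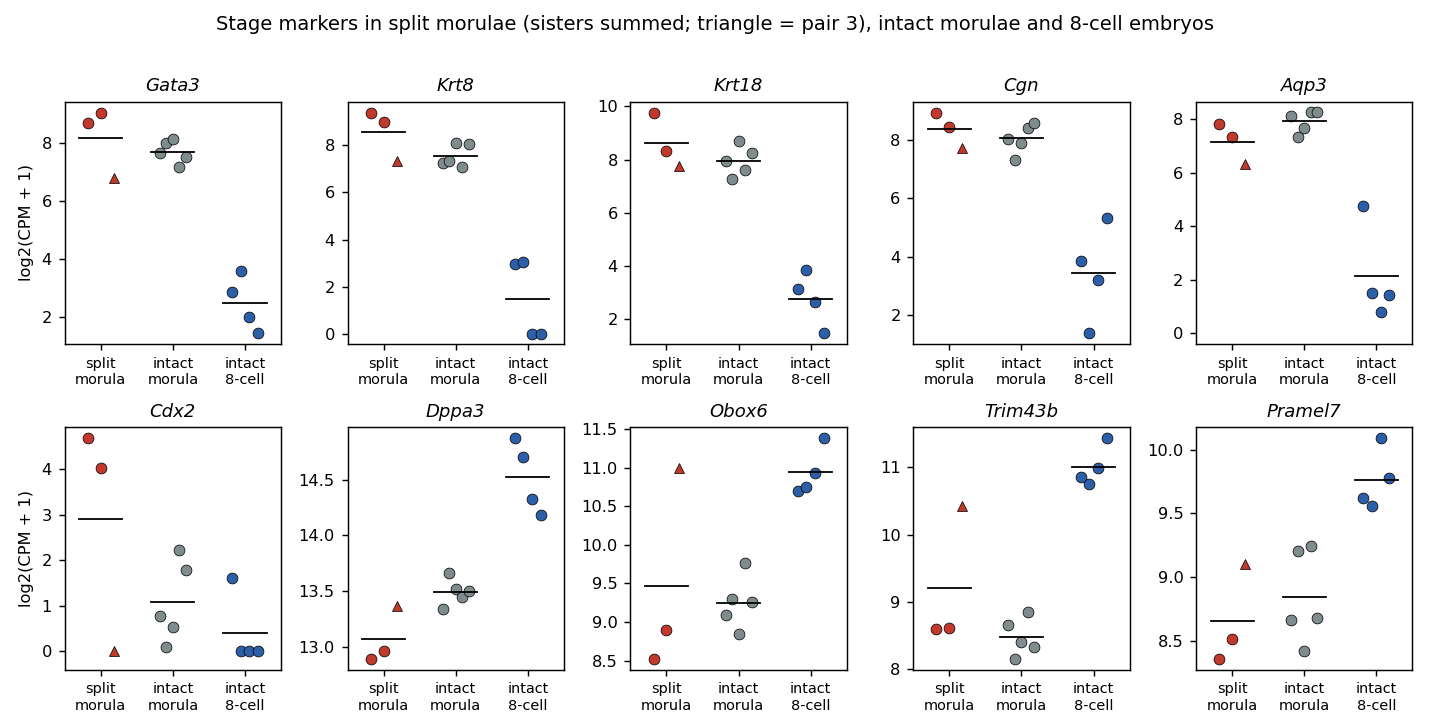
CPM on a log2(CPM + 1) scale for 10 stage markers, 1 point per split pair (red, left), intact morula (grey) and intact 8-cell embryo (blue, right), with the group mean of that scale as a bar and split pair 3 as a triangle. The split pairs lie above the 8-cell embryos in the first 5 panels, and the triangle lies among or near the 8-cell embryos for Cdx2, Obox6 and Trim43b.

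Pair 3 was therefore carried as a unit that stands apart, and results are given with and without it where that matters. Its position was shared by both sisters for Obox6 and Trim43b but not for all genes. Gata3 measured 194 CPM in the first and 22.4 CPM in the second sister of pair 3, whereas the sisters of pairs 1 and 2 held 293 to 549 CPM and the 8-cell embryos 1.75 to 10.9 CPM. Across the 15875 genes tested, the correlation of log2 CPM with the 8-cell embryos was 0.768 and 0.758 for the sisters of pair 3 and 0.740 to 0.753 for the other 4 split morulae. With the intact morulae it was 0.788 and 0.781 for pair 3 and 0.83 to 0.84 for the others. Genes are not independent replicates and the libraries share their normalization, so these are descriptions. Sisters of 1 pair differed by a median SD of 1.07 log2 CPM per gene, against 0.84 between the 8-cell embryos.

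Depth was alike between the groups after summing: the split pairs held 32140578 to 36398402 counts (14146833 to 18852776 per embryo) and the 8-cell embryos 26282853 to 38514899. Thinned to 26282853 counts, 13034 ± 237 genes were detected per split pair (SD, n = 3) and 13007 ± 510 per 8-cell embryo (SD, n = 4), a difference within the spread (two-sided exact permutation test, p = 0.943). A split pair pools 2 embryos and an 8-cell unit is 1 embryo, so that test compares unlike units. Single split morulae thinned to 13888842 counts showed 10221 to 12044 genes, against 11954 to 13187 in single 8-cell embryos and 12521 to 13385 in single intact morulae. This difference between single embryos was not tested. Markers of other cells were low: cumulus and granulosa markers summed to 0 to 9.92 CPM in split morulae, against 1.34 to 16.6 CPM in 8-cell embryos, with 9 of 12 at 0 in each group. Sperm markers summed to 0 to 1.70 CPM in split morulae and 0.767 to 3.50 CPM in 8-cell embryos, blood markers, led by Hba-a1, to 2.82 to 60.9 and 11.2 to 35.0 CPM, and fibroblast markers, led by Fn1, to 0.988 to 17.5 and 0.614 to 11.3 CPM. No member of these 4 lists that entered the test passed it (1 cumulus marker was called lower without 8-cell embryo 1).

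Between split morulae and 8-cell embryos, transcripts moved on a broad front, with more genes gained than lost. By edgeR's quasi-likelihood test with Benjamini-Hochberg adjustment, called at an adjusted p under 0.05, 1966 of 15875 genes tested (12.4%) were higher in split morulae and 1170 (7.37%) were lower. The median called rise was 5.71-fold and the median called fall 2.93-fold, while the median log2 fold change of all genes tested was 0.06. Among the called genes, 1464 of the higher (74.5%) and 1039 of the lower (88.8%) had split pairs and 8-cell embryos that did not overlap, against 2016 (12.7%) and 1790 (11.3%) such genes among all tested. Called genes were picked for a difference between these same units, so their larger shares follow from that choice. No count was seen in any of the 4 8-cell embryos for 391 of the higher genes, and none in any split pair for 84 of the lower. Without pair 3 the counts were 1933 higher and 1118 lower. The share of called genes that rose was 62.7%, but it moved to 49.0% (840 higher, 873 lower) with only the compared groups in the fit, to 52.0% (1989 and 1834) with each embryo as its own sample, and to 39.7% (1669 and 2534) with limma-voom and the embryo of origin as a random effect.

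**Figure D2:**
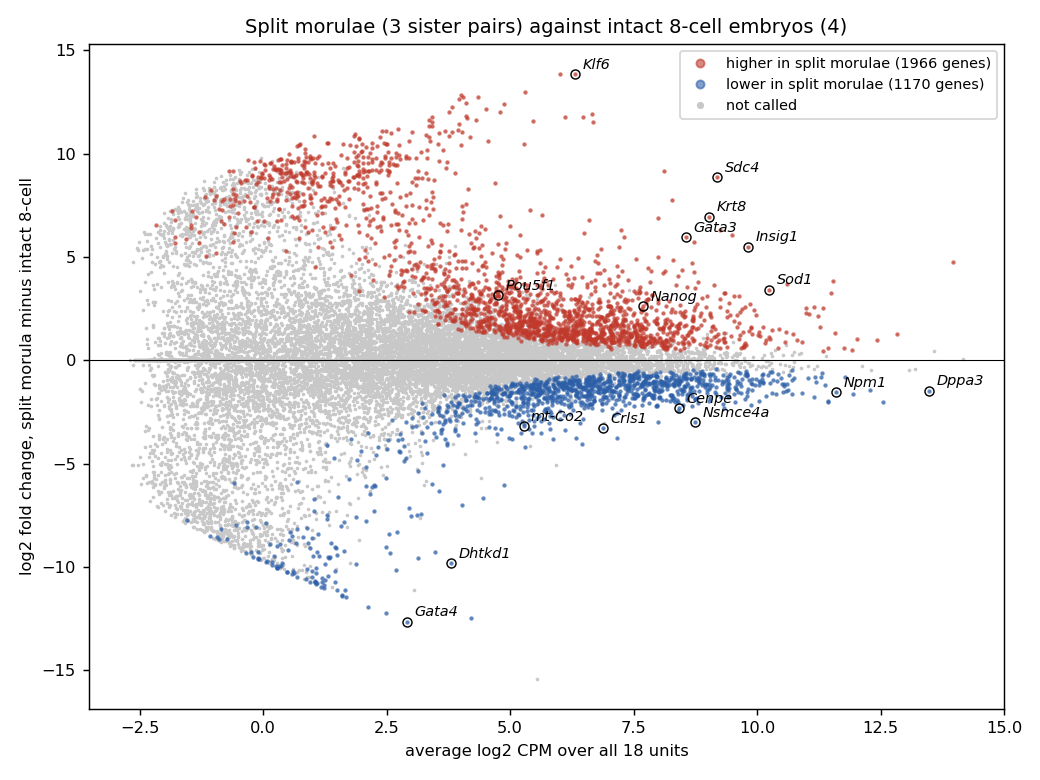
Fitted log2 fold change of split morula minus intact 8-cell (vertical) against the average log2 CPM over all units (horizontal), 1 point per gene, with the 1966 genes called higher in red and the 1170 called lower in blue. The arms at the far left and the largest rises hold genes at 0 in one group, whose fitted values depend on the prior count; at average log2 CPM above 5 the called rises, such as Gata3, Krt8 and Sdc4, reach further from 0 than the called falls.

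Ranked by fitted log2 fold change, the 10 largest rises among well-measured genes with non-overlapping units all had 0 counts in the 8-cell embryos. Fitted values of genes at 0 depend on the prior count, so the ranking itself tends to place such genes first. Because a fitted fold has no meaning there, each is given as a bound against the floor of 3 counts in a median 8-cell library (0.105 CPM). Klf6, a zinc-finger transcription factor, measured 148, 42.1 and 26.0 CPM in the split pairs against 0 in every 8-cell embryo, at least 688-fold higher on the mean (adjusted p = 1.03e-07). Serpinb9b, a serine protease inhibitor, followed with 137, 47.1 and 29.5 CPM in split pairs against 0 in 8-cell embryos, at least 682-fold higher. The stress-inducible heme oxygenase gene Hmox1 measured 30.0, 22.2 and 48.9 CPM in split pairs against 0 in 8-cell embryos, at least 322-fold higher, and was highest in pair 3. Nearly all Hmox1 reads of pair 3 came from 1 sister, at 96.1 CPM against 0.707 CPM in the other. Tex19.2, a relative of the germline gene Tex19.1, was even across the pairs, with 30.3, 29.5 and 41.3 CPM against 0 in 8-cell embryos. The other 6 were Fgfbp1, which binds fibroblast growth factors, Nppb, which encodes a natriuretic peptide, the ubiquitin ligase gene Trim38, the PHD finger gene Phf11d, Spp1, which encodes osteopontin, and the cell-surface gene Ly6f, with bounds between 226-fold and 373-fold. Fgfbp1 was uneven, with 78.3, 36.2 and 2.53 CPM in split pairs 1 to 3.

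The 10 largest falls removed transcripts that were moderate in 8-cell embryos. Aqp5, a water channel gene, measured 0, 0 and 0.0294 CPM in split pairs against 38.4, 90.3, 106 and 94.1 CPM in 8-cell embryos (adjusted p = 1.02e-06). Dhtkd1, a mitochondrial enzyme of lysine breakdown, measured 0.0642, 0.110 and 0 CPM in split pairs against 73.6, 67.5, 52.8 and 32.9 CPM in 8-cell embryos. Both were thus close to 0 in all 3 split pairs, pair 3 included. Oog3, an oocyte gene of the oogenesin family, measured 0, 0.220 and 0 CPM in split pairs against 26.1, 55.7, 38.8 and 76.8 CPM in 8-cell embryos, and Siglec1, a sialic acid-binding lectin, 0.161, 0.357 and 0.0881 against 29.0, 43.2, 45.8 and 29.8 CPM. The oocyte transcripts Omt2a and Omt2b, which resemble each other closely and so are uncertain one by one, were also among the 10, with Omt2b at 0, 2.33 and 0.411 CPM in split pairs against 148, 142, 40.3 and 45.9 CPM in 8-cell embryos. The call of Omt2b was lost without pair 1 or pair 3 (log2 fold change -6.10 and -6.32), and that of Omt2a without any 1 of the 3 pairs (-5.42, -6.12 and -6.76) or without 8-cell embryo 1 or 2 (-5.87 and -5.68). Kank4 (lost without pair 1 or 2, at -6.44 and -6.42), Zfp758, Htra1 and Vmn2r3 made up the rest. Htra1, a secreted serine protease, was low in 8-cell embryos too, with 0.0321, 0 and 0 CPM in split pairs against 4.78, 0.325, 2.54 and 2.76 CPM in 8-cell embryos. Its call was lost with only the compared groups in the fit and with TPM plus 1.

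Many trophectoderm genes rose, among them the regulator Gata3 and the keratins of the outer layer. Of 28 trophectoderm genes tested, 12 were higher and 0 lower (42.9% and 0%, beside 12.4% and 7.37% of all genes). The list's median log2 fold change was 1.22, or 2.08 with genes at 0 in 1 group set to their bound and genes at or under the floor in both groups left out (all genes: 0.06 and 0.14). Without pair 3 the count was also 12 and 0. Among those called higher, Gata2, Tfap2a and Msx2 were low and uneven between split pairs. They measured 0.489 ± 0.823, 2.90 ± 4.85 and 4.86 ± 6.64 CPM (SD, n = 3), against 0, 0.0397 and 0 CPM on the mean of 8-cell embryos. Gata3, a transcription factor that drives trophectoderm fate, measured 402, 521 and 108 CPM in split pairs against 6.35, 10.9, 3.00 and 1.75 CPM in 8-cell embryos, a log2 fold change of 5.96 ± 0.60 (SE, adjusted p = 2.43e-06). Krt8 and Krt18 encode the partner keratins of the first epithelium. Krt8 measured 655, 496 and 158 CPM in split pairs against 6.79, 7.22, 0 and 0 CPM in 8-cell embryos (log2 fold change 6.95 ± 1.26, adjusted p = 0.00125), and Krt18 872, 318 and 218 against 7.59, 13.4, 5.17 and 1.75 CPM (6.07 ± 0.65, adjusted p = 7.28e-06). For all 3 genes the lowest split pair, pair 3, was more than any 8-cell embryo, so the groups did not overlap.

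The promoters of these 3 genes are shown because the genes moved together, from 250 bases before to 50 after the RefSeq start in build GRCm38.p6, 5′ to 3′ on the gene's strand. Capitals mark matches on either strand to the AP-2 motif GCCNNNGGC, the GATA motif AGATAA, the SP/KLF motif GGGCGG or to GGAATG, the TEAD core motif.
Gata3, chr2:9878551-9878850, minus strand: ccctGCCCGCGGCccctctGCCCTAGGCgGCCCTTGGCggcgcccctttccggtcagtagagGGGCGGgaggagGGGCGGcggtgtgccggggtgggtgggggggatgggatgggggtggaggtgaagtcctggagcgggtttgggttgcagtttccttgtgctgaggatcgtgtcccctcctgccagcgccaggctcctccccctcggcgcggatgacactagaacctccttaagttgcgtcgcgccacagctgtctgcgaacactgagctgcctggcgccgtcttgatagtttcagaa
Krt8, chr15:102004293-102004592, minus strand: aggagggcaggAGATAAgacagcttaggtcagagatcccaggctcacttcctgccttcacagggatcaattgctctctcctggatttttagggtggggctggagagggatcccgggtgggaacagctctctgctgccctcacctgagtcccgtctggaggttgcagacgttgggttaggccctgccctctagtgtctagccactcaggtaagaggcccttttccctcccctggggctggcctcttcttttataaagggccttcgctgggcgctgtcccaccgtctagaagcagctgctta
Krt18, chr15:102027966-102028265, plus strand: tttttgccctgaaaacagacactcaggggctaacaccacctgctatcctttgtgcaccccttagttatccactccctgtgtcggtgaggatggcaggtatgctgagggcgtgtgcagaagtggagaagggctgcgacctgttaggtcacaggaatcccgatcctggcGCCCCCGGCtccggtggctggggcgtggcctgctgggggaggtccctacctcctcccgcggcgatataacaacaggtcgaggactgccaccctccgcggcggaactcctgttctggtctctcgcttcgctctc
Gata3 held 3 AP-2 and 2 SP/KLF matches, Krt8 1 GATA match and Krt18 1 AP-2 match. Over the 12 trophectoderm genes called higher, all with a listed promoter, the AP-2 motif was found in 5, the SP/KLF motif in 8, the GATA motif in 2 and the TEAD core in 1. Among all 32851 promoters of the same 300 bases, the AP-2 motif occurs in 16.6%, the SP/KLF motif in 35.7%, the GATA motif in 11.2% and the TEAD core in 14.7%. A match describes letters only and says nothing of binding.

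Sdc4, Lrp2, Dppa1 and Krt7 had the largest called log2 fold changes among well-measured trophectoderm members. They were named by that size, which favours genes near 0 in 8-cell embryos. Other members were well expressed there: Cd9 averaged 1025 CPM and Klf5 427 CPM in 8-cell embryos, and neither was called. Sdc4, a heparan sulfate proteoglycan of the cell surface, measured 414, 272 and 359 CPM in split pairs against 0, 3.00, 0 and 0 CPM in 8-cell embryos (log2 fold change 8.87 ± 1.25, adjusted p = 0.000168). Lrp2, the endocytic receptor megalin, measured 437, 333 and 129.6 CPM in split pairs against 0.118, 4.87, 0.584 and 0 CPM in 8-cell embryos (adjusted p = 0.000163). Dppa1 was uneven between pairs, at 130.4, 59.0 and 5.41 CPM against 0, 0, 0.501 and 0 CPM in 8-cell embryos (adjusted p = 0.000117). Krt7, a simple epithelial keratin, was at 2.41, 2.99 and 0.999 CPM in split pairs and at 0 in 8-cell embryos, at least 20.4-fold higher (its call was lost with TPM plus 1). Cdx2, the caudal-type regulator of trophectoderm, did not pass: it measured 24.6, 15.4 and 0 CPM in split pairs against 2.04, 0, 0 and 0 CPM in 8-cell embryos (log2 fold change 4.68 ± 1.79, adjusted p = 0.0713). Pairs 1 and 2 lay above every 8-cell embryo for Cdx2 and both sisters of pair 3 were at 0; the gene passed without pair 3 (log2 fold change 5.27) and without 8-cell embryo 1. Eomes (adjusted p = 0.281), Tfap2c (0.693) and Tead4 (0.902) did not pass, with Tead4 at 34.0, 85.7 and 159 CPM in split pairs against 122, 79.5, 101 and 97.3 CPM in 8-cell embryos; Eomes passed without 8-cell embryo 3 (log2 fold change 4.04).

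Part of the machinery of the sealed, fluid-pumping epithelium rose as well. Of 26 tight junction, desmosome and cavitation genes, 10 were higher and 0 lower (38.5% and 0%, beside 12.4% and 7.37% of all genes). Their median log2 fold change was 1.25 (1.72 with genes at 0 set to their bound). The count was 9 without pair 3 and 6 without 8-cell embryo 2. Cgn, which encodes the tight junction adaptor cingulin, measured 487, 346 and 208 CPM in split pairs against 13.3, 1.62, 8.18 and 38.9 CPM in 8-cell embryos (log2 fold change 4.48 ± 0.70, adjusted p = 0.000226). Aqp3, a water and glycerol channel, measured 226, 159 and 79.4 CPM in split pairs against 26.3, 1.84, 0.751 and 1.72 CPM in 8-cell embryos (log2 fold change 4.33 ± 0.92, adjusted p = 0.00344). In both, every split pair was above every 8-cell embryo. Cldn6, a claudin, measured 157, 128 and 27.5 CPM in split pairs against 0, 0.289, 0 and 15.7 CPM in 8-cell embryos (adjusted p = 0.0323) and lost its call without pair 1, pair 2 or 8-cell embryo 2 (log2 fold change 4.25, 4.54 and 4.31). Atp1b1, the beta subunit of the sodium-potassium pump, measured 85.2, 25.6 and 13.7 CPM against 4.43, 5.02, 0 and 2.16 CPM in 8-cell embryos (adjusted p = 0.00753; lost without pair 1, at 2.75). The calls of Cldn6 and Atp1b1 were also lost with only the compared groups in the fit, and that of Atp1b1 in limma-voom with the embryo of origin as a random effect. Cldn3, Cldn4, Cldn7, Ocln and F11r, all genes of tight junction proteins, were also called higher.

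Genes of adhesion, compaction and polarity split in direction. Of 33 tested, 4 were higher (12.1%) and 3 lower (9.09%), close to the 12.4% and 7.37% of all genes, and 2 were higher without pair 1. Epcam, an epithelial adhesion gene, measured 895, 389 and 131 CPM in split pairs against 15.6, 33.2, 84.8 and 63.8 CPM in 8-cell embryos (log2 fold change 3.26 ± 0.53, adjusted p = 0.000311), and 2.38 without pair 1. Myh9, a non-muscle myosin heavy chain, measured 117, 112 and 47.0 CPM in split pairs against 11.3, 8.92, 9.05 and 17.3 CPM in 8-cell embryos (log2 fold change 2.98, adjusted p = 5.17e-06), and its relative Myh10 rose less (1.66, adjusted p = 0.00965; lost without pair 1, at 1.32, and with only the compared groups in the fit). The small GTPase gene Rap1a fell, with 112, 46.7 and 112 CPM in split pairs against 333, 312, 288 and 255 CPM in 8-cell embryos (log2 fold change -1.71, adjusted p = 5.05e-05). In the cadherin-catenin junction of compaction, Ctnna1, the alpha-catenin gene, was called higher (log2 fold change 1.10, adjusted p = 0.0182), while Cdh1 and Ctnnb1 did not pass. Cdh1, which encodes E-cadherin, measured 110.1, 45.2 and 50.4 CPM in split pairs against 102.8, 18.01, 44.3 and 85.9 CPM in 8-cell embryos (adjusted p = 0.899), and Ctnnb1, its beta-catenin partner, 48.4, 73.3 and 41.2 against 42.3, 57.6, 41.4 and 37.9 CPM (adjusted p = 0.514).

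Yap1, an effector of the Hippo pathway, fell. Of 23 Hippo genes tested, 4 were lower (17.4%) and 1 higher (4.35%), beside 7.37% and 12.4% of all genes. The list's count is not firm, since 1 to 2 were lower without pair 1, pair 2 or 8-cell embryo 1, and 2 were higher without pair 3 or 8-cell embryo 3. Yap1, the transcriptional co-activator that Hippo kinases keep out of the nucleus, measured 19.7, 18.2 and 20.2 CPM in split pairs against 82.0, 95.1, 122.8 and 106 CPM in 8-cell embryos (log2 fold change -2.39 ± 0.31, adjusted p = 7.16e-06). The 3 pairs were nearly equal for Yap1, and all were below every 8-cell embryo. Its paralog Wwtr1 measured 15.2, 25.9 and 33.1 CPM in split pairs against 37.6, 93.3, 73.6 and 57.1 CPM in 8-cell embryos (adjusted p = 0.0198; lost without pair 1, pair 2 or 8-cell embryo 2, at -1.16, -1.43 and -1.18). Mob1b, a co-activator of the Hippo kinases, was near the threshold (adjusted p = 0.0443) and lost its call without pair 1, pair 2 or 8-cell embryo 1, 3 or 4 (log2 fold change -1.001 to -1.447). Tead2, a DNA-binding partner of YAP, was the member called higher, with 1.32, 9.66 and 2.44 CPM in split pairs against 0, 0.108, 0.167 and 0 CPM in 8-cell embryos (adjusted p = 0.00451). Its call was lost with only the compared groups in the fit (adjusted p = 0.11), with second sisters only (0.0812), with limma-voom and the embryo of origin as a random effect (0.158) and with TPM plus 1 (0.0669). The calls of Wwtr1 and Mob1b were lost with only the compared groups and under TPM too.

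More pluripotency genes rose than fell. Of 28 tested, 12 were higher (42.9%) and 4 lower (14.3%), beside 12.4% and 7.37% of all genes. The list's median log2 fold change was 1.03, and 11 were higher and 5 lower without pair 3. Pou5f1, which encodes OCT4, measured 64.3, 69.0 and 41.7 CPM in split pairs against 8.68, 0.505, 2.21 and 15.0 CPM in 8-cell embryos (log2 fold change 3.14 ± 0.70, adjusted p = 0.00242), with no overlap. Intact morulae held 7.55 to 21.4 CPM of Pou5f1, and their step was not called (log2 fold change 1.30, adjusted p = 0.119). Split against intact morulae did not pass for Pou5f1 (adjusted p = 0.227). Nanog, a homeobox regulator of the inner cell mass, measured 345, 378 and 22.5 CPM in split pairs against 87.2, 32.7, 8.34 and 32.4 CPM in 8-cell embryos (log2 fold change 2.63 ± 0.72, adjusted p = 0.0168). Pair 3 lay inside the 8-cell range for Nanog; the log2 fold change was 3.17 without it, while the call was lost without pair 1 or pair 2 (2.31 and 2.20), with only the compared groups in the fit and in limma-voom with the embryo of origin as a random effect. Sox2, a later inner cell mass regulator, was at 3.31, 2.44 and 0 CPM in split pairs and at 0 in 8-cell embryos, at least 18.3-fold higher on the mean (adjusted p = 0.00114), with pair 3 at 0 too and a single sister of pairs 1 and 2 carrying the reads; its call was lost with first sisters only, in limma-voom with the embryo of origin as a random effect and with TPM plus 1. Lin28a, an RNA-binding gene, measured 144, 84.2 and 77.0 CPM in split pairs against 14.2, 5.27, 6.84 and 6.07 CPM in 8-cell embryos (adjusted p = 7.40e-06), and Stat3, the mediator of LIF signalling, 46.2, 34.8 and 25.7 against 0, 2.06, 4.46 and 0.539 CPM (adjusted p = 0.00116; lost with only the compared groups in the fit). Klf2, a ground-state pluripotency factor, fell, with 17.7, 30.0 and 35.5 CPM in split pairs against 94.4, 76.1, 124 and 124 CPM in 8-cell embryos (log2 fold change -1.91 ± 0.50, adjusted p = 0.00915; lost without pair 1, at -1.69). Klf4, Nr5a2 and Fbxo15 were the others called lower.

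Fgf4, the signal that inner cells send to primitive endoderm, measured 60.7, 54.3 and 45.6 CPM in split pairs against 4.99, 9.64, 29.1 and 2.29 CPM in 8-cell embryos and did not pass (adjusted p = 0.0942), though it passed without 8-cell embryo 3 (log2 fold change 3.25). Among 16 primitive endoderm genes tested, 6 were higher (37.5%) and 1 lower (6.25%), beside 12.4% and 7.37% of all genes. The count higher was 3 without pair 1, and the count lower was 2 without 8-cell embryo 3 or 4. The higher ones included genes of the basement membrane. Lamc1, a laminin chain, measured 38.5, 23.8 and 14.0 CPM in split pairs against 4.43, 2.49, 2.25 and 0.0674 CPM in 8-cell embryos (adjusted p = 0.00499), and Sparc, a matrix glycoprotein, 4.78, 10.4 and 14.2 against 0, 0, 0.167 and 0.0337 CPM (adjusted p = 7.58e-05). For Sparc 1 sister of each pair carried nearly all reads, and its call was lost in limma-voom with the embryo of origin as a random effect (log2 fold change 4.33, adjusted p = 0.126). The calls of Lamc1, Lamb1 and Col4a1 were lost with only the compared groups in the fit. The laminin gene Lamb1 (adjusted p = 0.006) lost its call without pair 1 (log2 fold change 2.08), and the collagen gene Col4a1 (adjusted p = 0.043) without pair 1, pair 2 or 8-cell embryo 2, 3 or 4 (3.38 to 4.50). The lineage regulators did not rise. Gata4 was at 0 in every split pair, against 34.3, 21.4, 38.4 and 30.2 CPM in 8-cell embryos, at least 352-fold lower in split morulae (adjusted p = 0.00749). Gata6 measured 135, 128 and 90.0 CPM in split pairs against 411, 127, 59.5 and 295 CPM in 8-cell embryos (adjusted p = 0.107; passed without 8-cell embryo 3, at -1.24), Pdgfra was at most 6.58 CPM in all 7 units (adjusted p = 0.959), and Sox17 had 0 counts in every one.

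Some oocyte and cleavage transcripts fell. Of 32 maternal oocyte genes tested, 6 were lower (18.8%) and 1 higher (3.12%), beside 7.37% and 12.4% of all genes, with a median log2 fold change of -2.81 (-2.43 with genes at 0 set to their bound); the count lower was 2 to 3 without any 1 split pair or without 8-cell embryo 2, near the share of all genes. Dppa3, a maternal protector of DNA methylation, measured 7594, 7962 and 10519 CPM in split pairs against 29926, 26628, 20511 and 18550 CPM in 8-cell embryos (log2 fold change -1.46 ± 0.19, adjusted p = 6.84e-06). Khdc3, a partner of the maternal NLRP5 protein, moved the other way, with 530.0, 494 and 236 CPM in split pairs against 35.1, 25.01, 6.17 and 15.2 CPM in 8-cell embryos (log2 fold change 4.36 ± 0.41, adjusted p = 2.92e-07). Both were clear of overlap in all 3 pairs. Of 19 two-cell and cleavage genes, 4 were lower (21.1%) and 0 higher (6 lower without pair 3, 1 higher without 8-cell embryo 1). Ubtfl1, a preimplantation HMG-box gene, measured 12.6, 29.3 and 48.9 CPM in split pairs against 129, 187, 199 and 159 CPM in 8-cell embryos (adjusted p = 0.000871). Arl3, a small GTPase gene, measured 11.01, 5.79 and 10.96 CPM in split pairs against 111, 129.7, 158 and 122 CPM in 8-cell embryos (log2 fold change -3.81, adjusted p = 0.000731). Pramel7 (-1.08, adjusted p = 0.00119) and Trim43a (-0.95, adjusted p = 0.0122) fell less, and Trim43a, which has near-identical copies, lost its call without pair 1 (-0.78) and under TPM.

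**Figure D3:**
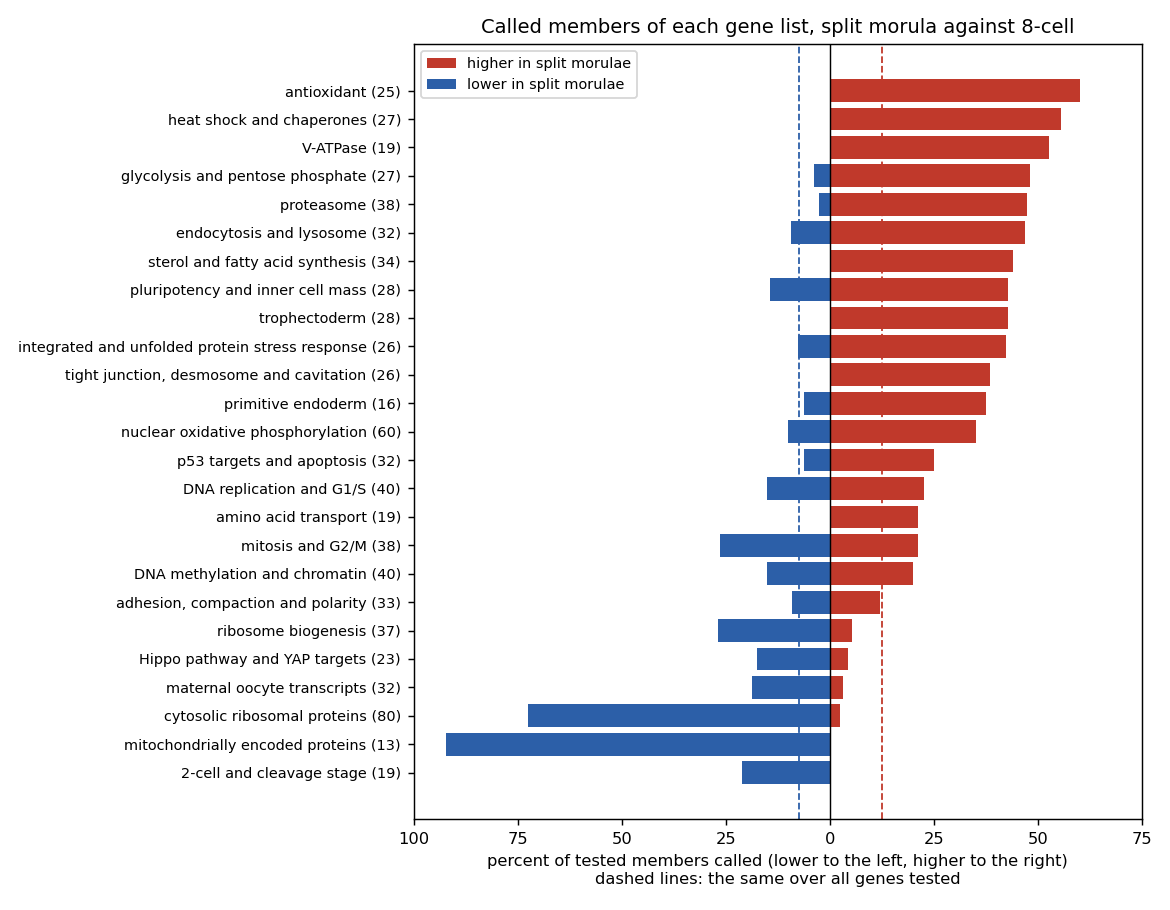
Percent of tested members of each gene list (number tested in brackets) called higher in split morulae (red, to the right) and lower (blue, to the left), with dashed lines at the shares of all genes tested, 12.4% and 7.37%. Antioxidant, chaperone and V-ATPase lists have most members called higher, and mitochondrially encoded and cytosolic ribosomal protein lists most members called lower.

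Many metabolic genes rose. Antioxidant genes had 15 of 25 members higher and 0 lower (60% and 0%, beside 12.4% and 7.37% of all genes). Their median log2 fold change was 1.32. Sod1, the cytosolic superoxide dismutase, measured 1614, 1544 and 2628 CPM in split pairs against 200.1, 182, 203 and 135 CPM in 8-cell embryos (log2 fold change 3.42 ± 0.21, adjusted p = 6.22e-10), and was highest in pair 3. Gstp1, a glutathione transferase with close copies, measured 80.7, 151 and 56.1 CPM in split pairs against 9.71, 5.38, 6.01 and 3.98 CPM in 8-cell embryos (adjusted p = 1.24e-07). The catalase gene Cat measured 53.5, 30.5 and 1.26 CPM in split pairs against 6.20, 2.85, 1.13 and 0 CPM in 8-cell embryos (adjusted p = 0.023; lost without pair 1, pair 2 or 8-cell embryo 3, at 2.63, 3.42 and 3.23). Glycolysis and pentose phosphate genes had 13 of 27 members higher (48.1%) and 1 lower (3.7%), with 0 lower without pair 1, pair 3 or 8-cell embryo 2. Pkm, pyruvate kinase, measured 73.0, 67.7 and 86.3 CPM in split pairs against 7.14, 9.75, 0.667 and 6.07 CPM in 8-cell embryos (log2 fold change 3.68, adjusted p = 8.16e-05). Slc2a1, the glucose transporter GLUT1, measured 26.3, 48.8 and 12.7 CPM against 0, 0, 4.75 and 0.337 CPM in 8-cell embryos (adjusted p = 0.0099), and Tpi1, triosephosphate isomerase, 79.7, 109 and 12.02 against 0, 3.57, 0 and 5.16 CPM (adjusted p = 0.0132). Pair 3 was the lowest split pair for Slc2a1 and Tpi1. The calls of Slc2a1, Tpi1 and Cat were lost with only the compared groups in the fit, and those of Tpi1 and Cat in limma-voom with the embryo of origin as a random effect. Gapdh was at 5.46, 5.88 and 1.59 CPM in split pairs and 0 in 8-cell embryos, but it has many processed copies and its count is uncertain.

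Sterol and fatty acid synthesis had 15 of 34 members higher and 0 lower (44.1% and 0%, beside 12.4% and 7.37% of all genes). Its median log2 fold change was 1.27. Insig1, which holds the sterol sensor in the endoplasmic reticulum, measured 615, 514 and 141 CPM in split pairs against 8.56, 7.11, 2.59 and 18.8 CPM in 8-cell embryos (log2 fold change 5.51 ± 0.73, adjusted p = 7.54e-05). Scd2, a fatty acid desaturase, measured 86.5, 123.0 and 8.75 CPM in split pairs against 1.53, 0, 0 and 3.07 CPM in 8-cell embryos (adjusted p = 0.00172). In both genes pair 3 was the lowest split pair and still above the 8-cell embryos. In limma-voom with the embryo of origin as a random effect neither passed, with log2 fold changes of 5.42 for Insig1 (adjusted p = 0.0505) and 6.58 for Scd2 (adjusted p = 0.112).

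Many uptake and degradation genes rose too. Endocytosis and lysosome genes had 15 of 32 members higher (46.9%) and 3 lower (9.38%), beside 12.4% and 7.37% of all genes. The counts were 12 and 4 without pair 3, and 1 was lower without pair 1, pair 2 or 8-cell embryo 3. Hexa, a lysosomal hexosaminidase subunit, measured 34.2, 33.6 and 10.5 CPM in split pairs against 3.54, 1.30, 1.58 and 3.64 CPM in 8-cell embryos (adjusted p = 5.62e-05; lost in limma-voom with the embryo of origin as a random effect). Tpp1, a lysosomal peptidase, was at 33.1, 27.6 and 0 CPM in split pairs and 0 in 8-cell embryos, at least 194-fold higher on the mean, with pair 3 at 0. The V-ATPase, the proton pump that acidifies these compartments, had 10 of 19 subunit genes higher (52.6%) and 0 lower. Atp6v0b measured 409, 459 and 386 CPM in split pairs against 173, 146, 136 and 105 CPM in 8-cell embryos (log2 fold change 1.58, adjusted p = 1.94e-06), and Atp6v1b2 rose by 1.85 on that scale (adjusted p = 2.11e-06). Amino acid transport had 4 of 19 members higher (21.1%) and 0 lower (1 lower without pair 1). Slc3a2, the heavy chain shared by several amino acid exchangers, measured 128, 185 and 903 CPM in split pairs against 46.7, 27.6, 37.9 and 60.6 CPM in 8-cell embryos (log2 fold change 3.23 ± 0.48, adjusted p = 5.96e-05), and 1.86 without pair 3. Most of the Slc3a2 reads of pair 3 came from 1 sister, at 1439 CPM against 353 CPM in the other. Slc38a1, a glutamine transporter, measured 35.1, 11.998 and 5.96 CPM in split pairs against 0, 1.16, 0 and 0 CPM in 8-cell embryos (adjusted p = 0.00114; lost with only the compared groups in the fit).

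Many protein folding and turnover genes rose. Heat shock and chaperone genes had 15 of 27 members higher and 0 lower (55.6% and 0%, beside 12.4% and 7.37% of all genes). The count higher was 13 without pair 3, and 1 was lower without pair 2. Hspa5, the chaperone BiP of the endoplasmic reticulum, measured 497, 302 and 444 CPM in split pairs against 81.7, 71.1, 102 and 122 CPM in 8-cell embryos (log2 fold change 2.14 ± 0.21, adjusted p = 2.93e-07). Hsph1, a large cytosolic chaperone, measured 361, 218 and 223 CPM in split pairs against 54.2, 91.2, 38.1 and 49.5 CPM in 8-cell embryos (adjusted p = 5.75e-06). Hspb1, a small heat shock protein gene, was highest in pair 3, with 55.0, 47.8 and 370.4 CPM in split pairs against 32.2, 4.08, 10.6 and 7.55 CPM in 8-cell embryos (log2 fold change 3.53, adjusted p = 0.00143), and 1.92 without pair 3. Most of the Hspb1 reads of pair 3 came from 1 sister, at 662.8 CPM against 70.8 CPM in the other. Integrated and unfolded protein stress response genes had 11 of 26 members higher (42.3%) and 2 lower (7.69%). The count lower was 1 without pair 1, pair 2, 8-cell embryo 2 or 8-cell embryo 3. Creld2, a secreted folding factor, measured 333, 406 and 321 CPM in split pairs against 62.1, 55.5, 54.3 and 60.0 CPM in 8-cell embryos (adjusted p = 1.21e-08), and Pdia4, a disulfide isomerase, 82.6, 78.5 and 105 against 14.6, 5.92, 11.8 and 8.23 CPM (adjusted p = 9.55e-08). The regulator Xbp1 (adjusted p = 0.0336) lost its call without pair 1 or pair 2 (log2 fold change 3.36 and 3.28) and with only the compared groups in the fit. Of 38 proteasome genes, 18 were higher (47.4%) and 1 lower (2.63%). Psmc3, a base ATPase, measured 596, 510.1 and 408 CPM in split pairs against 128, 106, 77.8 and 152 CPM in 8-cell embryos (log2 fold change 2.12, adjusted p = 1.03e-07), and Psmb9, an inducible catalytic subunit, was at 23.5, 8.32 and 0.852 CPM against 0 in 8-cell embryos, at least 104-fold higher.

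Most ribosomal protein and mitochondrially encoded transcripts fell. Of 80 cytosolic ribosomal protein genes, 58 were lower and 2 higher (72.5% and 2.5%, beside 7.37% and 12.4% of all genes). Their median log2 fold change was -0.98. Rpl30 measured 238, 204 and 226 CPM in split pairs against 965, 1081, 1004 and 639 CPM in 8-cell embryos (log2 fold change -2.05 ± 0.20, adjusted p = 2.38e-07), and Rps28 289, 260.1 and 293 against 1193, 1129, 1153 and 982 CPM (-1.99 ± 0.21, adjusted p = 5.74e-07). These genes have many processed copies, so single values are uncertain. Ribosome biogenesis genes had 10 of 37 members lower (27%) and 2 higher (5.41%). Npm1, the nucleolar chaperone nucleophosmin, measured 2398, 2232 and 1830 CPM in split pairs against 6557, 6656, 6226 and 5724 CPM in 8-cell embryos (log2 fold change -1.55, adjusted p = 3.27e-06), and Gnl3, a nucleolar GTPase, 199, 204 and 317 against 631, 1039, 1243 and 771 CPM (-1.94, adjusted p = 6.08e-06). Rrn3, an initiation factor of RNA polymerase I, moved the other way, with 759, 766 and 984 CPM in split pairs against 181, 139, 148 and 202 CPM in 8-cell embryos (log2 fold change 2.32 ± 0.18, adjusted p = 1.51e-08). Utp20, a small-subunit processing factor, fell (adjusted p = 0.0145) and lost its call without pair 1 (log2 fold change -1.39) and under TPM.

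Of 13 mitochondrially encoded protein genes, 12 were lower and 0 higher (92.3% and 0%, beside 7.37% and 12.4% of all genes). Their median log2 fold change was -2.03. The cytochrome oxidase gene mt-Co2 measured 12.01, 10.3 and 11.02 CPM in split pairs against 92.6, 99.0, 122 and 86.5 CPM in 8-cell embryos (log2 fold change -3.17 ± 0.36, adjusted p = 1.77e-06), and mt-Atp6, an ATP synthase subunit, 24.7, 29.3 and 36.5 against 227, 235, 240.4 and 145 CPM (adjusted p = 2.35e-06). All 3 split pairs were below every 8-cell embryo for both, with pair 3 the highest of them for mt-Atp6. Both genes were named for their large fold change and make up a small part of the mitochondrially encoded counts. The share of all counts, given next, differed by a smaller factor. The mitochondrially encoded share of all counts was 2.61% ± 0.275 in split pairs (SD, n = 3) and 4.37% ± 0.958 in 8-cell embryos (SD, n = 4). Every split pair lay below every 8-cell embryo, and the two-sided exact permutation test gave p = 0.0571, the smallest that 35 relabellings of 3 against 4 allow. Of 60 nuclear genes of oxidative phosphorylation, 21 were higher (35.0%), 6 lower (10%, near the 7.37% of all genes) and 33 not called. The list's median log2 fold change was 0.16, and 3 were lower without pair 2. Uqcrc1, a core subunit of complex III, measured 1061, 937 and 882 CPM in split pairs against 135, 127, 72.7 and 149 CPM in 8-cell embryos (log2 fold change 2.99 ± 0.22, adjusted p = 1.01e-08), and Ndufv1, of complex I, 173, 93.1 and 129 against 25.8, 15.4, 10.7 and 21.3 CPM (2.85 ± 0.32, adjusted p = 1.77e-06).

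Cell cycle lists held changes in both directions. Replication and G1/S genes had 9 of 40 members higher (22.5%) and 6 lower (15%), beside 12.4% and 7.37% of all genes. Mitosis and G2/M genes had 8 of 38 higher (21.1%) and 10 lower (26.3%), with 5 higher without pair 2 or pair 3. Cenpe, the kinetochore motor, measured 165, 193 and 194 CPM in split pairs against 1048, 856, 810.4 and 941 CPM in 8-cell embryos (log2 fold change -2.31 ± 0.18, adjusted p = 2.30e-08), whereas Bub3, a checkpoint gene, measured 473, 467 and 382 against 148, 76.6, 153 and 92.8 CPM (1.91 ± 0.21, adjusted p = 1.13e-06). Rfc1, the clamp loader, fell (80.4, 145 and 75.6 CPM in split pairs against 316, 215, 354 and 262 CPM in 8-cell embryos, adjusted p = 0.000255), and Ccnd1, a G1 cyclin, rose (41.6, 23.0 and 7.34 against 6.85, 0.361, 0.751 and 0.708 CPM, adjusted p = 0.00597). Calls of Gins2 (lost without pair 2, log2 fold change 2.58), Kif20a (lost without pair 3, 1.21) and Pold1 (lost without any 1 split pair or 8-cell embryo 3, 1.52 to 1.88) rested on 1 unit or more, and with that of Ccnd1 were lost with only the compared groups in the fit.

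The p53 targets named here were highest in pair 3, and within it in the second sister. That sister held 539 CPM of Cdkn1a, 643 CPM of Ccng1 and 237 CPM of Aen. The first sister of pair 3 held 260, 218 and 55.8 CPM of these genes. Of 32 p53 target and apoptosis genes, 8 were higher (25%) and 2 lower (6.25%), beside 12.4% and 7.37% of all genes. The count higher was 5 without pair 3. Cdkn1a, the p53-induced inhibitor of cyclin-dependent kinases, measured 116, 146 and 402 CPM in split pairs against 42.7, 51.0, 33.7 and 16.6 CPM in 8-cell embryos (log2 fold change 2.62 ± 0.51, adjusted p = 0.000738), and 1.87 without pair 3. Ccng1, another p53 target, measured 69.5, 45.7 and 433 CPM in split pairs against 3.39, 31.5, 19.0 and 4.21 CPM in 8-cell embryos (adjusted p = 0.00563), and lost its call without pair 3 (log2 fold change 1.99, against 3.65 with it). Btg2, an antiproliferative p53 target, measured 10.2, 6.31 and 151 CPM in split pairs against 0, 1.55, 1.33 and 0.0337 CPM in 8-cell embryos (adjusted p = 0.00154); without pair 3 its log2 fold change was 3.50, against 6.26 with it, and its call was lost in limma-voom with the embryo of origin as a random effect. Of the 151 CPM of Btg2 in pair 3, most came from 1 sister, at 283 CPM against 16.3 CPM in the other. Aen, a p53-induced nuclease, also lost its call without pair 3 (2.09, against 3.11 with it). Trp53 itself measured 57.9, 66.1 and 128 CPM in split pairs against 14.8, 4.62, 10.2 and 1.52 CPM in 8-cell embryos (adjusted p = 3.89e-05). Its level in pair 3 came mostly from 1 sister, at 228.8 CPM against 24.9 CPM in the other.

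The chromatin list had 8 of 40 members higher (20%) and 6 lower (15%), beside 12.4% and 7.37% of all genes. Its median log2 fold change was 0.04. Kdm6b, an H3K27 demethylase, measured 721, 703 and 325 CPM in split pairs against 19.7, 26.9, 10.2 and 24.0 CPM in 8-cell embryos (log2 fold change 4.85 ± 0.33, adjusted p = 2.90e-09). Tet2, a methylcytosine dioxygenase, measured 678, 368 and 287 CPM in split pairs against 27.8, 9.38, 24.6 and 6.71 CPM in 8-cell embryos (log2 fold change 4.70 ± 0.44, adjusted p = 4.10e-07). Uhrf1, the cofactor of maintenance methylation, measured 29.8, 32.0 and 7.11 CPM in split pairs against 0, 0.686, 0.167 and 3.78 CPM in 8-cell embryos (adjusted p = 0.00458; lost with only the compared groups in the fit and in limma-voom with the embryo of origin as a random effect). All split pairs were above all 8-cell embryos in the 3 genes. Suz12, Ehmt2, Sirt1, Ep300, Chd1 and Chd4 were called lower.

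The 3 split pairs had not moved equally far. Ranked by level, pair 3 was the split pair nearest to the 8-cell embryos in 1008 of the 1966 genes called higher (51.3%), pair 1 in 25.3% and pair 2 in 23.4%. Pair 3 lay at or under the highest 8-cell embryo in 326 of the called rises (16.6%), against 113 for pair 1 and 112 for pair 2. Among the 1170 genes called lower, pair 3 was nearest in 43.0%, pair 1 in 35.0% and pair 2 in 22.0%. The distance depended on the gene list. For tight junction and cavitation genes the median log2 difference to the 8-cell mean was 2.40 in pair 1, 2.15 in pair 2 and 0.87 in pair 3, and for two-cell and cleavage genes -2.42, -2.05 and -0.58. For mitochondrially encoded genes it was -1.79, -1.92 and -2.43, and for p53 targets 0.05, 0.76 and 1.94, with pair 3 the farthest in both. For trophectoderm genes pair 2, not pair 3, had the smallest median (3.14, 0.44 and 1.29). What set pair 3 apart was not tested.

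**Figure D4:**
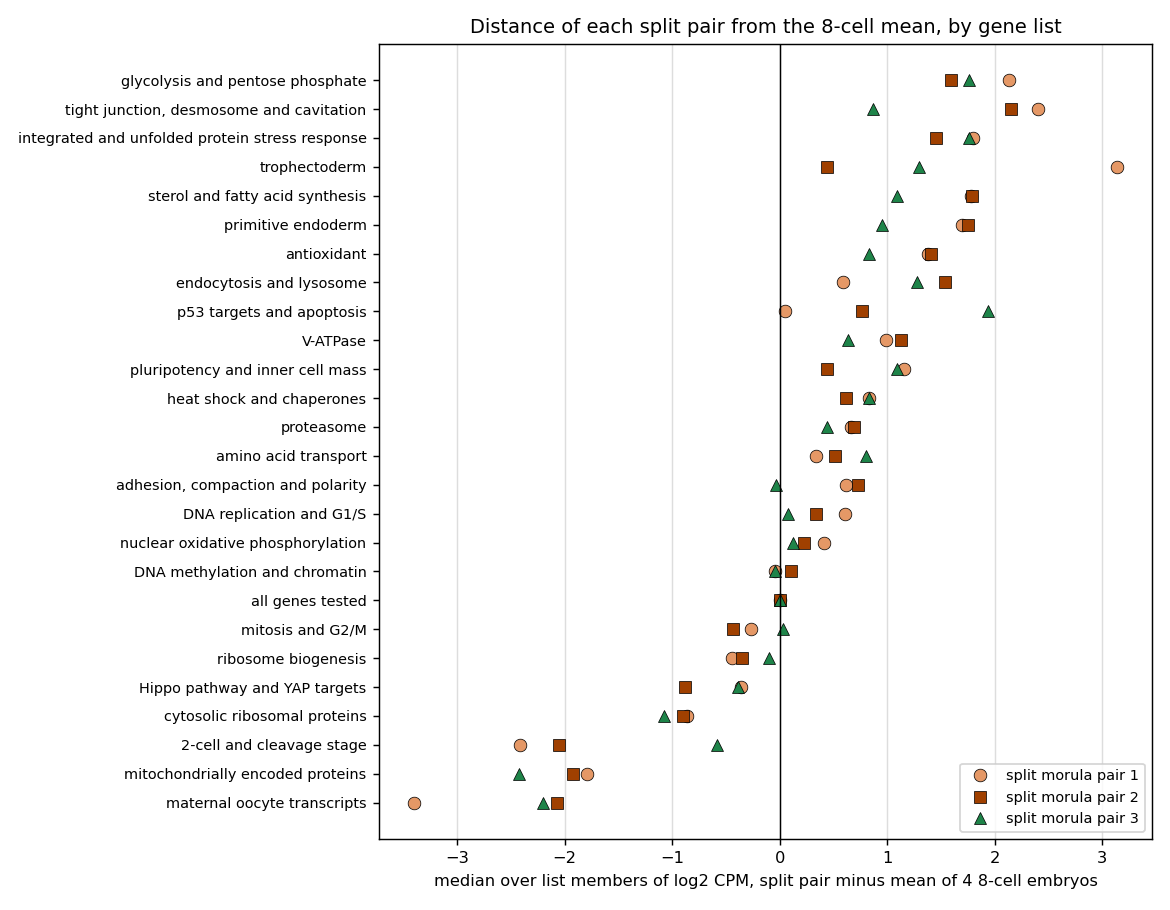
Median over list members of the log2 CPM difference between each split pair and the mean of the 4 intact 8-cell embryos, 1 row per gene list and 1 symbol per split pair. Pair 3 (green triangles) is nearest to 0 for tight junction and cleavage-stage genes and farthest from 0 for p53 targets and mitochondrially encoded genes.

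The intact morulae gave the same step without separation, against the same 8-cell embryos, so the shared controls bind the comparisons and the values are set side by side. Intact morulae had 2267 genes higher (14.3%) and 1693 lower (10.7%) than 8-cell embryos, beside 1966 and 1170 for split morulae. With 5 intact morulae but 3 split pairs, numbers called do not measure which step is larger. The median called change was 4.01-fold in split and 3.87-fold in intact morulae. Trophectoderm genes had 12 higher and 0 lower in split morulae, and 12 higher and 3 lower in intact ones. Tight junction and cavitation genes had 10 and 0 in split morulae, and 9 and 3 in intact ones, and maternal oocyte genes 1 and 6, and 2 and 10. Antioxidant genes had 15 and 0 in split morulae, and 18 and 0 in intact ones, and chaperone genes 15 and 0, and 13 and 0. Stress response genes had 11 and 2, and 10 and 4, proteasome genes 18 and 1, and 26 and 1. For p53 targets the counts were 8 and 2, and 4 and 6. Hmox1 measured 14.5 to 44.9 CPM over the intact morulae. Gata3 reached 402, 521 and 108 CPM in split pairs and 141 to 277 CPM over the 5 intact morulae, Krt8 655, 496 and 158 and 135 to 270.5 CPM, and Aqp3 226, 159 and 79.4 and 161 to 312 CPM. The difference between the split step and the intact step equals split minus intact morulae, since the 8-cell term cancels. By that test 11 genes were higher (0.0693%) and 9 lower (0.0567%) in split morulae, with 2377 genes at an unadjusted p under 0.05; DESeq2 called 273 and 423. The counts without pair 3 were 2 and 5, of which 1 and 3 were among the first 11 and 9, and over all single left-out units they ran from 1 to 30 and from 3 to 21.

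Of the 20 genes, 19 were well measured, and 3 kept the call in each of the 12 fits that left out 1 split pair, intact morula or 8-cell embryo. Poldip3, which encodes a polymerase delta and mRNA export partner, measured 323, 284 and 361 CPM in split pairs, 82.1 to 111 CPM over intact morulae and 57.9, 34.7, 37.8 and 55.2 CPM in 8-cell embryos. It rose by 2.80 log2 units over the 8-cell level in split morulae and by 1.03 in intact ones (adjusted p of the difference 0.000332). Rap1b, a small GTPase of adhesion, measured 216, 191 and 113 CPM in split pairs, 497 to 599.8 CPM over intact morulae and 584, 544, 564 and 464 CPM in 8-cell embryos. Its log2 fold change was -1.64 in split morulae (adjusted p = 1.19e-05) and 0.04 in intact ones, and the difference passed (adjusted p = 0.000773). Nsmce4a, a subunit of the SMC5/6 complex, measured 178, 135 and 96.4 CPM in split pairs, 334 to 574 CPM over intact morulae and 1217, 1103, 988 and 1001 CPM in 8-cell embryos. It had fallen by 2.98 log2 units in split morulae and by 1.38 in intact ones (adjusted p of the difference 0.00206). Crls1, cardiolipin synthase, fell further in split morulae too (-3.28, against -1.83 in intact ones, adjusted p 0.00942) and lost the call only without pair 2 among those 12 fits. The other 15 named genes lost it in at least 4 of the 12, Alppl2 in 9. Slc3a2, at 128, 185 and 903 CPM in split pairs and 73.8 to 98.9 CPM over intact morulae, lost it without pair 3.

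**Figure D5:**
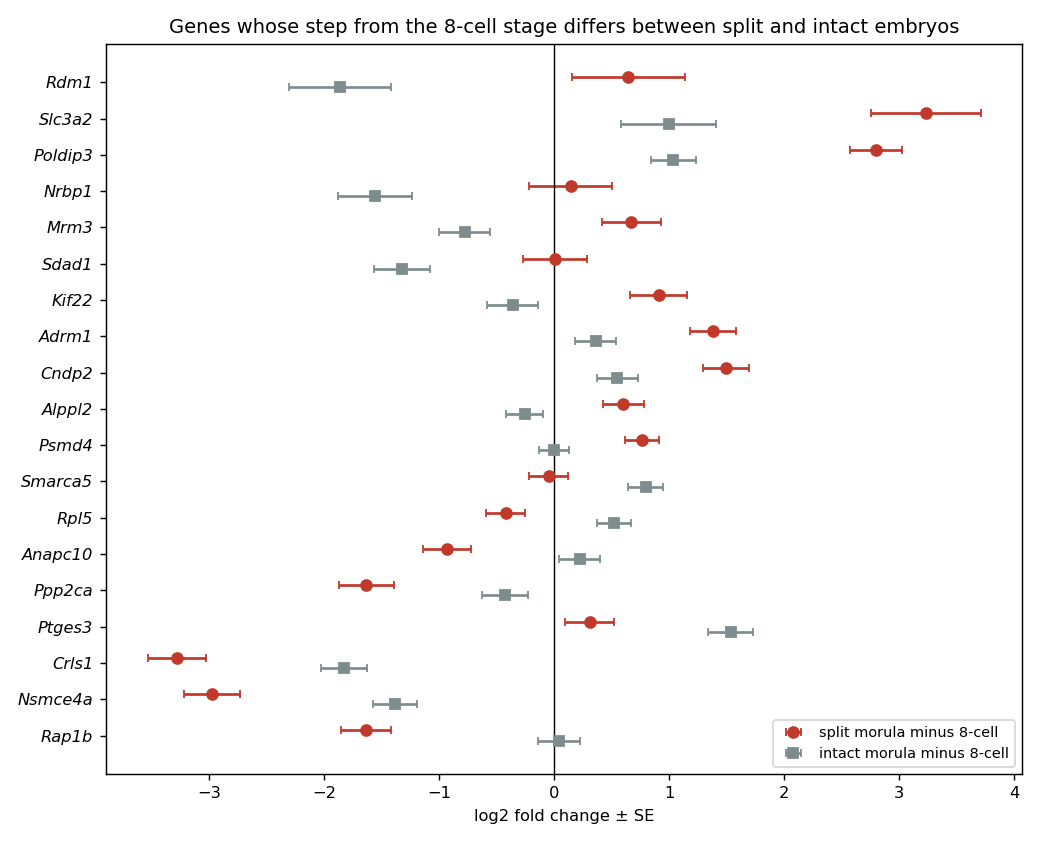
Log2 fold change from intact 8-cell embryos with its SE for split morulae (red circles, above) and intact morulae (grey squares, below), for the 19 genes whose difference between the steps passed the test. Poldip3 lies at 2.80 and 1.03, and Rap1b at -1.64 and 0.04. The error bars of the pairs of symbols do not meet in any of the 19 genes, which were chosen by this same difference.

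To see whether split morulae had begun the next step, genes that separate intact blastocysts from intact morulae were followed. That contrast shares no embryo with split morulae against 8-cell embryos, but both come from 1 fit with a shared estimate of the spread. Of 496 genes higher in intact blastocysts (3.12% of those tested), 109 (22.0%) were higher and 78 (15.7%) lower in split morulae than in 8-cell embryos, with a median log2 fold change of 0.00 (0.07 with genes at 0 set to their bound). Of 1184 genes lower in intact blastocysts (7.46%), 260 (22.0%) were higher and 253 (21.4%) lower, with a median of -0.04. Both shares in both directions were above the 12.4% and 7.37% of all genes, and neither set moved in 1 direction. Genes called in 1 contrast are those measured well enough to be called, so the higher shares alone cannot show a begun next step.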

How the data were processed

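Single mouse embryos were profiled by Smart-seq2, and the embryos' stage and origin were taken from the labels. Per the submitters' processing notes, reads were checked with FastQC and MultiQC, trimmed with cutadapt, aligned with HISAT2 to GRCm39 and counted per gene with featureCounts, and edgeR is named too. Versions, the annotation release, strand and multi-mapping settings are not given in the sources used here, so genes with near-identical copies or antisense partners are uncertain. The authors deposited whole-number counts for 37229 genes and a length-scaled TPM table for 15625 genes, each with at least 11 counts in 3 or more embryos. The TPM were used only in alternatives.

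From the deposited counts, sister embryos were summed to 1 unit per two-cell embryo. The test was edgeR 4.0.16 in R 4.3.3 (quasi-likelihood F test, robust, TMM scaling, filterByExpr on group, 15875 genes kept) on all 5 groups and 18 units at once, with 13 residual degrees of freedom and no covariate. Log2 fold changes are split morula minus 8-cell; p-values were adjusted by Benjamini-Hochberg over all genes tested and called under 0.05. CPM use TMM-scaled library sizes. A gene at 0 in 1 group is given as a bound against a floor of 3 counts per library (0.105 CPM in 8-cell embryos, 0.0881 CPM in split pairs); floors and bounds cover counting error only. Detected genes and the mitochondrial share were compared over units by exact permutation. Alternatives were RLE scaling, other filters, DESeq2 1.42.0, limma 3.58.1, other units of replication and units left out. The procedure was tested on simulated counts.

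Members and the 29 gene lists were chosen with earlier results of these data known. Genes named are the 10 largest rises and falls with average log2 CPM of at least 3 and units that do not overlap, a panel of 20 stage and lineage genes, up to 4 called members per list with the largest log2 fold change and the same minimum, genes that differ between split and intact morulae, and stage markers; other members called are named without values. Some genes that this rule names are not reported here. Replicate numbers do not pair the groups: deviations of same-numbered split pairs and 8-cell embryos correlated at 0.029, -0.016 and 0.072. No count columns were identical.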

Additional observations from a re-analysis of the deposited data

Results flagged for a closer look

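Among 107 groups of 4 to 10 embryos scanned, 3 had 1 embryo far from the rest, where chance flags about 1 group in 20. Gata3 was at 22.4 CPM in the second sister of split pair 3, against 194 to 549 CPM in the other 5 split morulae. Dppa3 was at 14200 CPM in the first sister of split pair 3, against 6810 to 8850 CPM in the others. Aqp5, a water channel gene, was at 39.3 CPM in 8-cell embryo 1, against 93.7 to 111 CPM in the other 8-cell embryos. These CPM come from scaling each embryo as its own library.

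The step from the 8-cell stage differed between split and intact embryos in 19 well-measured genes, by edgeR's quasi-likelihood test of split minus intact morulae. The difference in log2 units (split minus intact) was positive for Rdm1, a DNA-binding gene (2.5), Slc3a2, an amino acid exchanger chain (2.24), Poldip3 (1.76), the pseudokinase gene Nrbp1 (1.70), the mitochondrial RNA methyltransferase gene Mrm3 (1.45), Sdad1 (1.33), the kinesin gene Kif22 (1.27), the proteasome receptor gene Adrm1 (1.02), the peptidase gene Cndp2 (0.95), the alkaline phosphatase gene Alppl2 (0.86) and the proteasome subunit gene Psmd4 (0.76). It was negative for Rap1b (-1.68), Nsmce4a (-1.60), Crls1 (-1.45), the co-chaperone gene Ptges3 (-1.23), the phosphatase gene Ppp2ca (-1.21), Anapc10, of the anaphase-promoting complex (-1.16), the ribosomal protein gene Rpl5 (-0.94) and the chromatin remodeller gene Smarca5 (-0.84). Ptges3 measured 1694, 1348 and 912 CPM in split pairs against 2228 to 4099 CPM in intact morulae, and 904 to 1170 CPM in 8-cell embryos. Whether separation or gel culture, which is not given for the intact embryos, goes with these differences cannot be told apart in this design.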

How the results depend on the processing

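The counts of split morulae against 8-cell embryos, 1966 higher and 1170 lower, stayed within 1.5 times under most of the 25 alternatives. The exceptions were 840 higher with only the compared groups in the fit (12218 genes tested), and 1834, 1856 and 2534 lower with each embryo as its own sample, with DESeq2 and with limma-voom, whose causes were not tested. The median of all genes was 0.06, against -0.13 under limma-voom, 0.16 and 0.26 under TPM with pseudocounts of 1 and 0.1, and 0.14 under the replicate block. Left-out units gave 1513 to 1933 higher and 794 to 1146 lower over the split pairs and 8-cell embryos. The replicate block, with numbers that do not pair the embryos, gave 1694 and 1016. The 11 higher and 9 lower calls of split against intact morulae were less stable: 10 and 10 under the block, 39 and 30 with no filter, 17 and 15 with a CPM filter, 1 and 3 with only the compared groups, 73 and 118 with each embryo as its own sample, 4 and 21 with first sisters only, 70 and 61 with second sisters only, 273 and 423 with DESeq2, 19 and 158 with limma-voom, and 29 and 23 higher under TPM with pseudocounts of 1 and 0.1. Left-out units gave 1 to 30 higher and 3 to 21 lower, past 1.5 times without any 1 split pair, intact morula 1, 2, 3 or 4, or 8-cell embryo 1, 3 or 4. The mitochondrial share differed by -3.48 percentage points in the TPM table, against -1.76 by counts. Of 133 named genes called, 90 kept their call under every alternative that gave an adjusted p; Alppl2 changed sign with first sisters only (-0.056). Depth limits genes near the floor, whose fitted folds depend on the prior count.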
